A study of Mus musculus with 27 samples.

Results

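The genes described here encode the subunits of the glutamate and GABA receptors in the brains of mice infused with antibodies against IgLON5, a cell adhesion protein on the neuronal surface that is the target of autoantibodies in anti-IgLON5 disease. They were taken as the rows of the count table that are protein-coding in the GENCODE M21 mouse annotation and whose symbols name a receptor subunit (Gria, Grik, Grid, Grin, Grm, Gabr and Gabbr). Of the 55487 rows, 43 genes found in this way are described, 25 of glutamate receptors and 18 of GABA receptors. The rule uses no counts. Of the 43 genes, 38 reached 10 counts in at least 4 libraries and were tested, together with all 20271 genes that passed this filter.

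RNA-seq was performed on the cortex and the hippocampus of the side opposite to the cannula, from male C57Bl/6J wild-type mice. They were 8 weeks old when the study assigned them to treatment, and tissue was taken after the infusion. The mice received an infusion into the right lateral ventricle for 14 days, at 0.25 μl/h, of α-IgLON5#1, an antibody pool purified on IgLON5 from patient plasma, of the control antibody pCtrl, or of PBS. The groups were PBS (n = 5 cortices and 5 hippocampi), pCtrl (n = 5 and 4) and α-IgLON5#1 (n = 4 and 4), 27 libraries from 14 mice, with totals of 19385642 to 58550621 counts. Levels are CPM, the counts of a gene relative to all counts of the library, with TMM scaling. All mice carried an osmotic pump, the GEO labels and the study describe pCtrl differently (a human monoclonal IgG against IgG of a healthy person's serum), and the labels name the cell type as neurons although the libraries are of whole tissue and hold glial transcripts.

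The receptors fall into families with distinct roles. AMPA, kainate and NMDA receptors are cation channels opened by glutamate, of which the AMPA type carries most fast excitation and the NMDA type admits calcium and triggers plasticity. The delta receptors belong to the same gene family and act at synaptic contacts, and the metabotropic glutamate receptors signal through G proteins. GABA-A receptors are chloride channels assembled from α, β and γ or δ subunits, with α5 or δ typical of extrasynaptic receptors, and GABA-B receptors are G protein-coupled dimers of Gabbr1 and Gabbr2.

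The composition of the hippocampal libraries is given first, because the groups differ in it and some values below moved when it entered the fit. A composition score was computed per library from 100 genes high in PBS cortex and 100 genes high in PBS hippocampus, receptor genes left out, on the log2 scale. It lay between -1.78 and -0.934 in PBS hippocampi, between -1.81 and -0.800 in α-IgLON5#1 hippocampi and between 1.79 and 2.80 in the cortices. The pCtrl hippocampi spanned -0.879 to 0.804, and those of mice 10 and 37 stood nearest to cortex. A list of 8 hippocampal field markers summed to 592 to 951 CPM in pCtrl hippocampi, 817 to 1174 CPM in PBS and 874 to 982 CPM in α-IgLON5#1, and no marker of this list was at 0 in all libraries. By edgeR at an adjusted p under 0.05, 7 of the 8 were higher in PBS hippocampus than in PBS cortex, and Wfs1 was lower. None of the 8 reached this between α-IgLON5#1 and pCtrl hippocampi (7 above 0, median log2 fold change 0.68). None did between pCtrl and PBS hippocampi either (1 above 0, median -0.71). The sum of 7 microglial markers was 296 to 364 CPM in PBS, 327 to 378 CPM in pCtrl and 476 to 879 CPM in α-IgLON5#1 hippocampi, and 6 of the 7 rose against either control. The PBS hippocampus of mouse 74 also held 3889 CPM of 5 pituitary markers, against at most 219.6 CPM in any pCtrl and 41.3 CPM in any α-IgLON5#1 hippocampus. In whole tissue, fewer cells of a type and less RNA per cell cannot be told apart.

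In PBS mice, these 43 genes took 0.607% of all counts in cortex and 0.708% in hippocampus. To compare genes with each other, levels were divided by the length of the merged exons (CPM per kb). In hippocampus Gria1 stood highest, at 166.5 ± 16.2 CPM per kb (mean ± SD, n = 5), followed by Gabbr1 at 95.3 ± 2.97 and Gria2 at 64.0 ± 7.14. The 5 values of Gria1 lay above all 5 of Gabbr1. In cortex Gabbr1 stood first, at 104 ± 6.26 CPM per kb, and Gria1 at 66.1 ± 6.62 and Gabbr2 at 61.3 ± 7.33 differed by less than their SDs. The highest gene of each family was the same in both tissues for 6 of the 7 families: Gria1 (AMPA), Grik5 (kainate, a subunit that needs a pore-forming partner, at 44.7 CPM per kb in cortex and 43.4 in hippocampus), Grin1 (the obligatory NMDA subunit, 36.1 and 32.3), Grid1 (delta, 13.4 and 13.6), Grm5 (metabotropic, 27.5 and 33.7) and Gabbr1. Among the GABA-A genes described, the first place went to Gabra3 in cortex, with 40.1 ± 5.10 CPM per kb, and to Gabra5 in hippocampus, with 42.5 ± 8.05 CPM per kb.

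**Figure D1:**
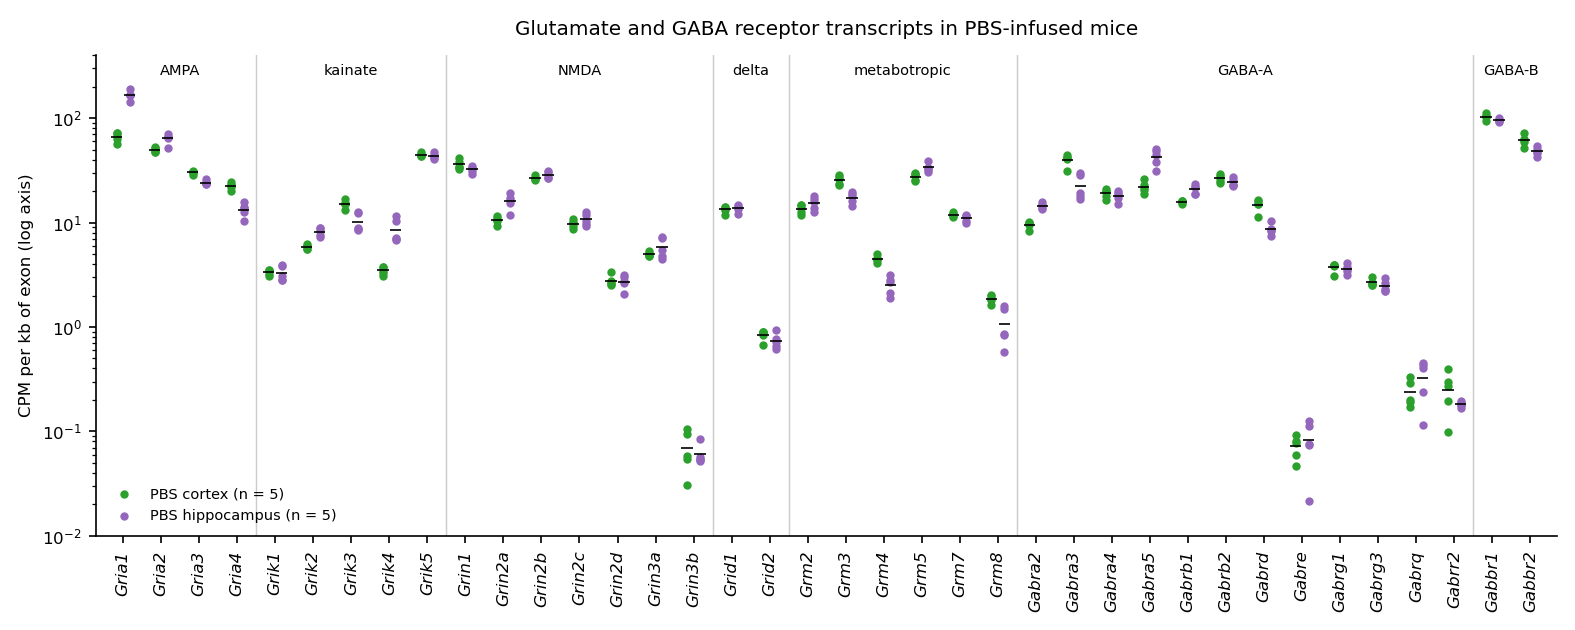
Levels of the 38 tested receptor genes in PBS mice, in CPM per kb of exon on a log axis, by family. Points are the 5 cortices and 5 hippocampi and black lines their means. Gria1 reached a mean of 166.5 CPM per kb in hippocampus, and Grin3b, Gabre, Gabrq and Gabrr2 lay far below the other genes of their families.

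Between the tissues of PBS mice, 9 receptor genes were higher in cortex and 9 higher in hippocampus (edgeR's quasi-likelihood test, Benjamini-Hochberg adjusted p under 0.05, which is what called means below). Over all genes tested, 14.1% were called higher and 12.7% lower in cortex. The median log2 fold change of cortex over hippocampus was 0.04 over the 38 genes and -0.008 over all genes. A fold change above 2 was reached by Gria1 and Grik4, which were both higher in hippocampus. The 8 genes with the largest fold change in each direction kept their call in all 16 alternative fits, which included leaving out each library in turn and did not add a threshold on the fold change, and Gria3 and Grm5 are the remaining calls.

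Among the AMPA receptor genes, Gria1 (chr11:57011387-57330244 of GRCm38) had 410, 433, 378, 341 and 435 CPM in the cortices of PBS mice 14, 32, 33, 38 and 74, and 1016, 1001, 1003, 868 and 1144 CPM in their hippocampi. Each hippocampus lay above each cortex, and the log2 fold change of cortex over hippocampus was -1.33 (SE 0.130, adjusted p = 2.52e-08). Gria2, the subunit that makes the channel impermeable to calcium, was higher in hippocampus by a smaller step (772 ± 37.6 against 995 ± 111 CPM, log2 fold change -0.36, adjusted p = 0.000979). Gria4, a subunit prominent in interneurons, went the other way, with 153, 137, 145, 127 and 146 CPM in cortex and 65.7, 86.8, 99.3, 88.7 and 79.1 CPM in hippocampus. The groups did not overlap, and the log2 fold change was 0.75 (SE 0.119, adjusted p = 2.42e-05). The count ratio of Gria1 to Gria4 thus had a median of 2.69 in cortex and 11.5 in hippocampus. Gria3 was 0.34 higher in cortex on the log2 scale.

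Of the kainate receptor genes, Grik4 (chr9:42518135-42944493), a high-affinity subunit, had 22.6, 20.7, 18.3, 19.6 and 22.3 CPM in PBS cortices and 42.8, 62.1, 40.2, 41.8 and 68.7 CPM in PBS hippocampi. The hippocampi of mice 32 and 74 stood above the other three, and all 5 lay above the cortices (log2 fold change -1.30, SE 0.143, adjusted p = 1.37e-07). Grik2, a pore-forming subunit, was also higher in hippocampus (-0.47, adjusted p = 3.98e-06). Grik3, another pore-forming subunit, was higher in cortex (136 ± 11.9 against 91.2 ± 18.4 CPM, log2 fold change 0.57, adjusted p = 0.00178).

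Of the 7 NMDA receptor genes only Grin2a was called, with 206, 192, 185, 165 and 200 CPM in PBS cortices and 309, 294, 276, 211 and 344 CPM in PBS hippocampi. All hippocampi were above all cortices, mouse 38 least so (log2 fold change -0.60, SE 0.121, adjusted p = 0.00043). Grin1 and Grin2b were not called (0.16 and -0.10). The ratio of Grin2a to Grin2b counts, a measure used to follow the maturation of NMDA receptors, had a median of 0.289 in cortex and 0.418 in hippocampus. Neither delta receptor gene was called.

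Of the metabotropic genes, the presynaptic receptors Grm4 and Grm8 and the glial and neuronal Grm3 were higher in cortex, by 0.82 (adjusted p = 0.00112), 0.81 (adjusted p = 0.00309) and 0.56 (adjusted p = 1.98e-05) on the log2 scale. Grm8 is a low gene, with 16.2 to 20.2 CPM in PBS cortices and 5.72 to 15.6 CPM in PBS hippocampi. Grm5, which couples to calcium release, was higher in hippocampus (log2 fold change -0.29).

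The GABA-A genes divided by subunit. Gabra5, the extrasynaptic α subunit of hippocampal pyramidal cells, had 55.6, 67.6, 63.3, 61.5 and 77.2 CPM in PBS cortices and 132, 144, 112, 92.8 and 151 CPM in PBS hippocampi. The groups did not overlap (log2 fold change -0.96, SE 0.155, adjusted p = 3.03e-05). Gabra2 (-0.60, adjusted p = 1.72e-05) and Gabrb1 (-0.41, adjusted p = 6.83e-05) were also higher in hippocampus. Gabra3 had 165, 176, 164, 123 and 158 CPM in cortex against 70.9, 75.7, 117, 113 and 66.4 CPM in hippocampus, where mice 33 and 38 stood near the lowest cortex (log2 fold change 0.83, SE 0.135, adjusted p = 3.47e-05). Gabrd, the δ subunit, was higher in cortex too (0.78, adjusted p = 1.44e-05). Gabrb2, a β subunit, was not called. Of the GABA-B genes, Gabbr2 was 0.35 higher in cortex and Gabbr1 was not called (0.12, adjusted p = 0.0861).

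**Figure D2:**
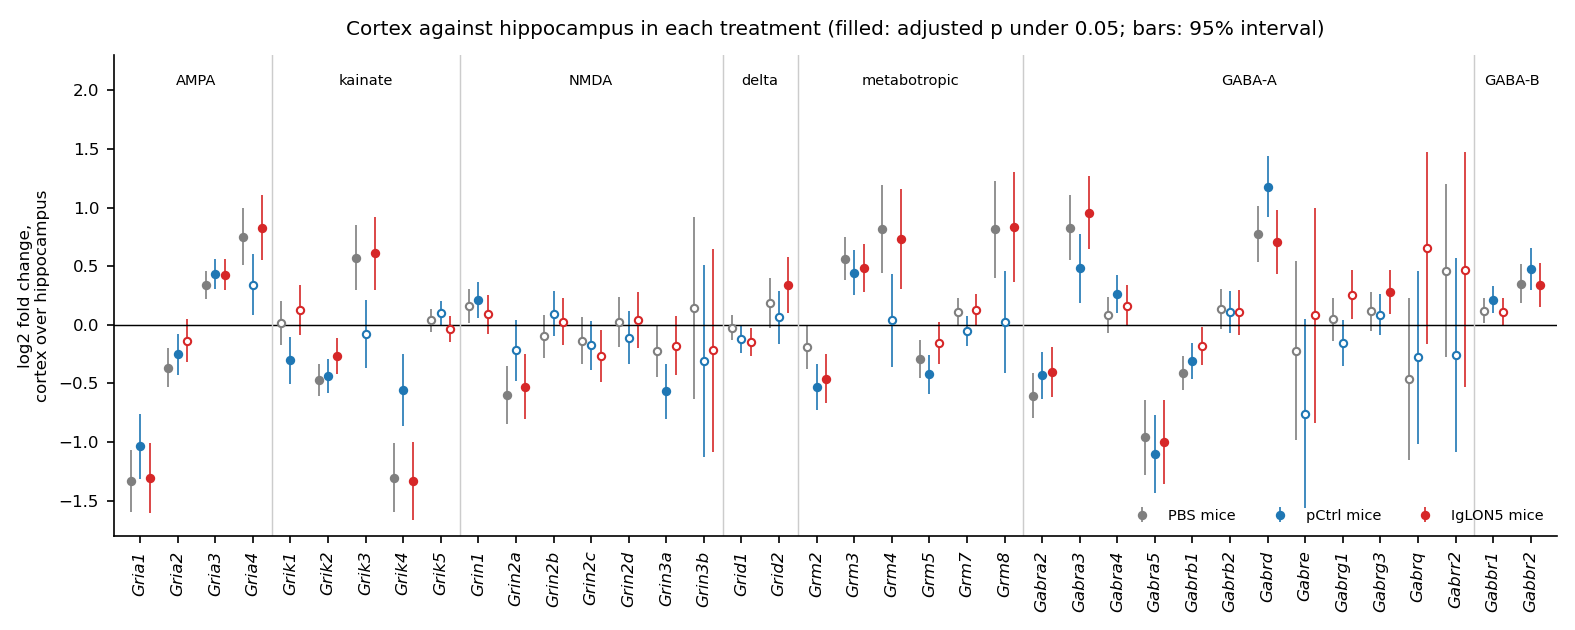
Log2 fold change of cortex over hippocampus for the 38 tested receptor genes, by family, in PBS (grey), pCtrl (blue) and α-IgLON5#1 (red) mice. Bars are 95% intervals and filled points have an adjusted p under 0.05. In PBS mice Gria1, Grik4 and Gabra5 lie lowest, and the pCtrl points of Grik3, Grik4, Gria4, Grm4 and Grm8 lie nearer to or across 0.

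The pCtrl and α-IgLON5#1 mice give the same comparison in libraries that share no sample with the PBS mice. In pCtrl mice 8 receptor genes were called higher and 11 lower in cortex (10.7% and 9.23% of all genes), and in α-IgLON5#1 mice 11 and 7 (12% and 11.8%). Of the 18 genes called in PBS mice, 13 were called in the same direction in pCtrl and 15 in α-IgLON5#1 mice, against 55.6% and 67.9% of all 5420 genes called in PBS mice. Called in the same direction in all 3 treatments were Gria1, Gria3, Grik2, Grik4, Grm3, Gabra2, Gabra3, Gabra5, Gabrd and Gabbr2. The share of all genes called in all 3 was not computed, so this list has no background to be set against. In pCtrl mice Gria4, Grik3, Grin2a, Grm4 and Grm8 were not called, and Grik3 had the opposite sign. These are the mice in which the hippocampal libraries 10 and 37 stood nearest to cortex, and the part of that shift in the missing calls was not tested. Gabrb2, Gabrg1, Grik5, Grin2b and Grm7 were among the receptor genes called in none of the 3 treatments, for which no share over all genes was computed either.

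The 250 bases before the transcription start are shown for 4 genes of opposite tissue preference, since the difference between tissues is the largest found here. They were the called PBS genes with the largest fold change in each direction that have a window in the RefSeq promoter table of GRCm38.p6, and the start nearest to the GENCODE gene start was used. Grik4 (chr9:42944372-42944621, minus strand) and Gabra5 (chr7:57510060-57510309, minus strand) were higher in hippocampus, and Gabra3 (chrX:72656808-72657057, minus strand) and Grm8 (chr6:28135147-28135396, minus strand) in cortex. Capitals mark matches on either strand to TATAAA (the TATA box), to CCAAT (the CCAAT box) and to GGGCGG (the GC box).
Grik4: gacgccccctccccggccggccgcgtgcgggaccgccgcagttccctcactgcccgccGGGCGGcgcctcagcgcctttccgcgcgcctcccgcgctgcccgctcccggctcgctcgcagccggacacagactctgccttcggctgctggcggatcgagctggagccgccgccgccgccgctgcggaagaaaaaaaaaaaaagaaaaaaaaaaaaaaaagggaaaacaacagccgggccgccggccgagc
Gabra5: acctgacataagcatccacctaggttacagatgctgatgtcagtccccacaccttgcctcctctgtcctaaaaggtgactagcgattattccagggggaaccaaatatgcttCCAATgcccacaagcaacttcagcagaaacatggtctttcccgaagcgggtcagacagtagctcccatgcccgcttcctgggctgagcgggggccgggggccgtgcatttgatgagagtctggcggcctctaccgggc
Gabra3: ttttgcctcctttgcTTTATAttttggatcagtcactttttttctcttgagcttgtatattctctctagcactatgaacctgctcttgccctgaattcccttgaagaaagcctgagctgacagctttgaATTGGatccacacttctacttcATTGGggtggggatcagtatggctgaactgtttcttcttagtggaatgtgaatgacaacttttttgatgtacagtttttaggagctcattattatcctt
Grm8: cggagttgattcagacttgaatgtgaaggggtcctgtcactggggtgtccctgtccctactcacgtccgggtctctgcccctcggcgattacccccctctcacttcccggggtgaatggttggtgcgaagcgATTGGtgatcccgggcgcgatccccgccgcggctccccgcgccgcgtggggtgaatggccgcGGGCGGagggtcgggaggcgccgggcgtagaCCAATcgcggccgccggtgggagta
Grik4 and Grm8 start in windows rich in CpG, with 36 and 29 CpG dinucleotides, whereas that of Gabra5 holds 9 and that of Gabra3 none. The Gabra3 window holds a TATA match and 2 CCAAT matches on the strand opposite to the gene. Over the 39 RefSeq windows of 32 receptor genes, 46.2% held GGGCGG, 41.0% CCAAT and 10.3% TATAAA, against 32.7%, 33.8% and 12.4% of all 32817 windows. The E-box CAGCTG was found in 2.56% and 13%, and the cAMP response element TGACGTCA in none of the receptor windows and 1.55% of all. The median window of a receptor gene held 9 CpG and 58.8% G or C, that of all windows 6 and 52.4%. These matches describe letters only.

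The α-IgLON5#1 hippocampi were compared with the pCtrl hippocampi to ask whether the antibody infusion went with a change in receptor transcripts. Of 38 receptor genes, Grik4 was called higher and Gria4, Grm4, Gabra3 and Gabrg1 lower, whereas 4.23% of all genes were called higher and 2.78% lower. None changed by more than 2-fold, and for 32 of the 38 genes the 95% interval of the fold change lay within a factor of 2 on both sides. The median log2 fold change was -0.09 over the receptor genes and 0.001 over all genes. With the composition score as a covariate none of the 5 calls remained, and likewise when the pCtrl hippocampi of mice 10 and 37 were left out, an alternative chosen after seeing the data. None of the 5 was called against PBS either. In the same comparison 2 of 8 pan-neuronal markers were called lower (Stmn2 and Tubb3, list median -0.16). The layer marker Tbr1, the striatal marker Drd1 and the pituitary marker Pomc were also called lower, and Gfap, Prkcd and 6 of 7 microglial markers higher. Tbr1 was the call among 7 layer markers, of which 1 lay above 0 (median -0.34). Drd1 was the call among 6 striatal markers, of which 3 lay above 0. Prkcd was the only 1 of 6 thalamic markers above 0 (list median -0.29). Gfap was the call among 6 astrocyte markers, of which 4 lay above 0. The part of these markers in the receptor calls was not tested.

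Grik4 had 28.8, 36.5, 24.0 and 40.5 CPM in the pCtrl hippocampi of mice 10, 15, 37 and 75, and 62.3, 61.8, 46.3 and 44.7 CPM in the α-IgLON5#1 hippocampi of mice 8, 9, 16 and 17. All 4 treated libraries lay above all 4 controls, the lowest of which were mice 37 and 10. The log2 fold change was 0.72 (SE 0.157, adjusted p = 0.00483), and the call held with each library left out in turn. It was 0.38 with the composition score as a covariate (adjusted p = 0.401), 0.48 without mice 10 and 37 (adjusted p = 0.263), and 0.07 against PBS, whose libraries spanned 40.2 to 68.7 CPM.

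Gabrg1 (chr5:70751047-70842617), a γ subunit found in neurons and glia, had 33.1, 30.2, 31.7 and 33.7 CPM in pCtrl and 22.1, 18, 27.6 and 26 CPM in α-IgLON5#1 hippocampi. The groups did not overlap, the pCtrl values lay close together, and mouse 9 was lowest. The log2 fold change was -0.45 (SE 0.101, adjusted p = 0.00649), and the call held with each library left out. It was lost with only the groups compared (adjusted p = 0.0995) and with only mice 8 to 17 (adjusted p = 0.197). Gabrg1 was not called between cortex and hippocampus in any treatment, and its fold change moved little, to -0.41 with the composition score (adjusted p = 0.142) and to -0.44 without mice 10 and 37 (adjusted p = 0.102). Against PBS, with 24.8 to 32.5 CPM, it was -0.27 (adjusted p = 0.13).

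Gria4 had 112, 90.3, 139 and 89.4 CPM in pCtrl and 71.7, 52.3, 90.3 and 83.7 CPM in α-IgLON5#1 hippocampi. The groups overlapped in 1 library, that of treated mouse 16, and mice 10 and 37 of pCtrl stood highest (log2 fold change -0.53, SE 0.134, adjusted p = 0.0168). Grm4 had 27.5, 16.5, 32.6 and 17.4 CPM in pCtrl and 13.9, 9.24, 19.6 and 15.8 CPM in α-IgLON5#1, with the same pCtrl mice highest and overlap otherwise (-0.67, SE 0.206, adjusted p = 0.0469). Gabra3 had 122, 106, 122 and 95 CPM in pCtrl and 78.8, 62.1, 96.9 and 77.5 CPM in α-IgLON5#1 (-0.50, SE 0.151, adjusted p = 0.0457). With the composition score the 3 log2 fold changes were -0.12, -0.11 and -0.13, and the calls held in 4, 3 and 2 of the 8 fits that left out 1 library each.

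**Figure D3:**
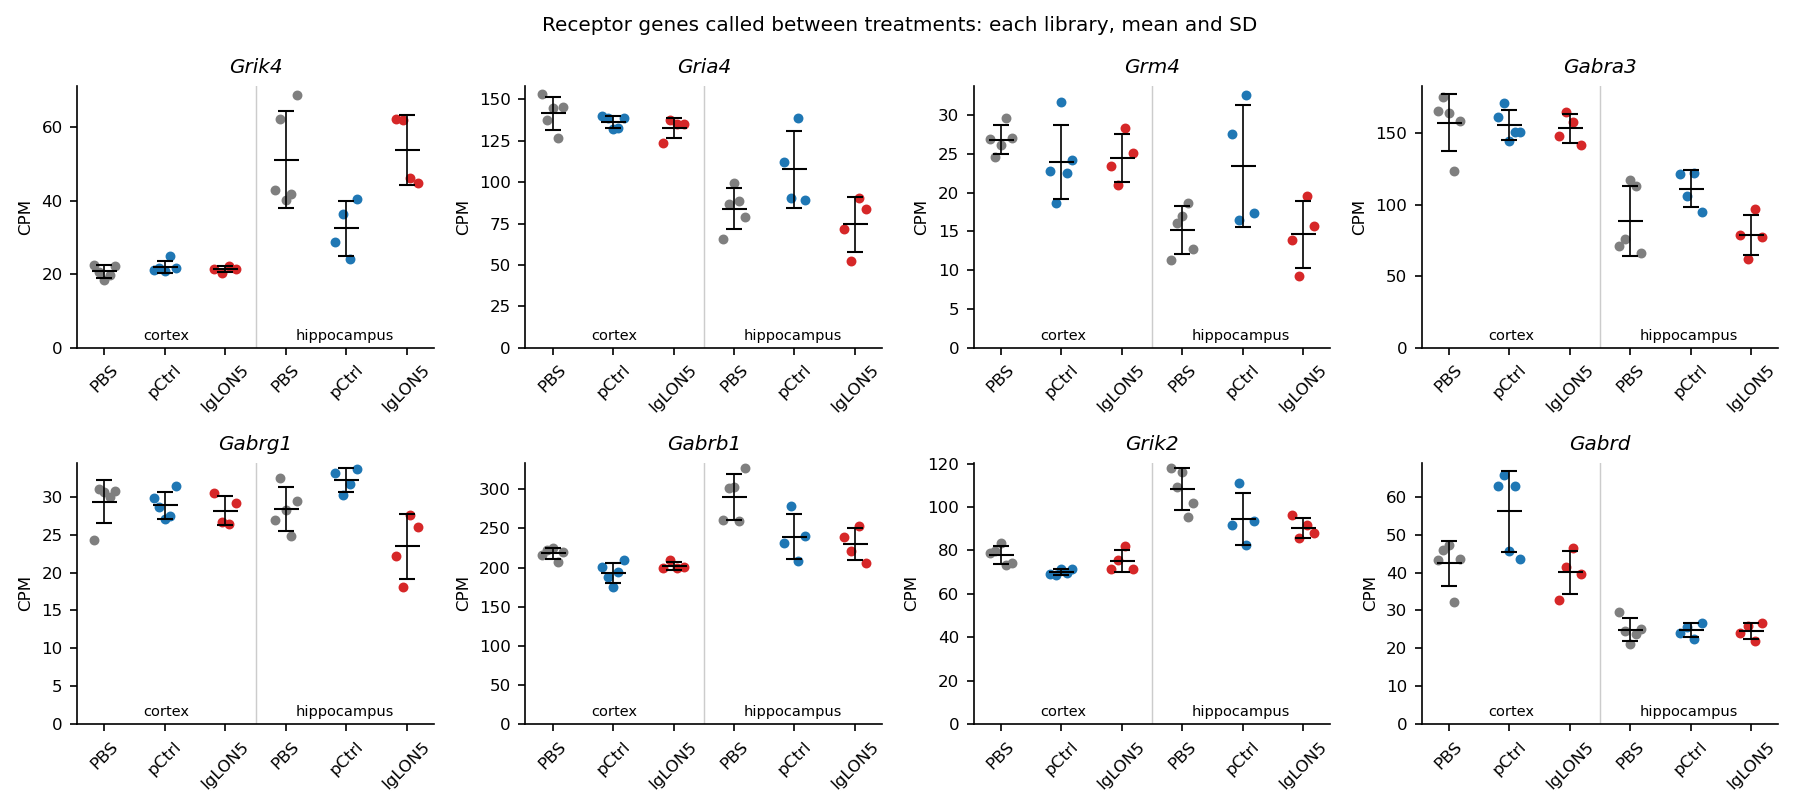
CPM in each library of the 8 receptor genes called in a comparison of α-IgLON5#1 with a control, with mean ± SD in black, by tissue and treatment (PBS n = 5 and 5, pCtrl n = 5 and 4, α-IgLON5#1 n = 4 and 4, cortex and hippocampus). In Grik4 and Gabrg1 the hippocampal α-IgLON5#1 and pCtrl points do not overlap, and the hippocampal α-IgLON5#1 points of Gabrb1 lie below all hippocampal PBS points.

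**Figure D4:**
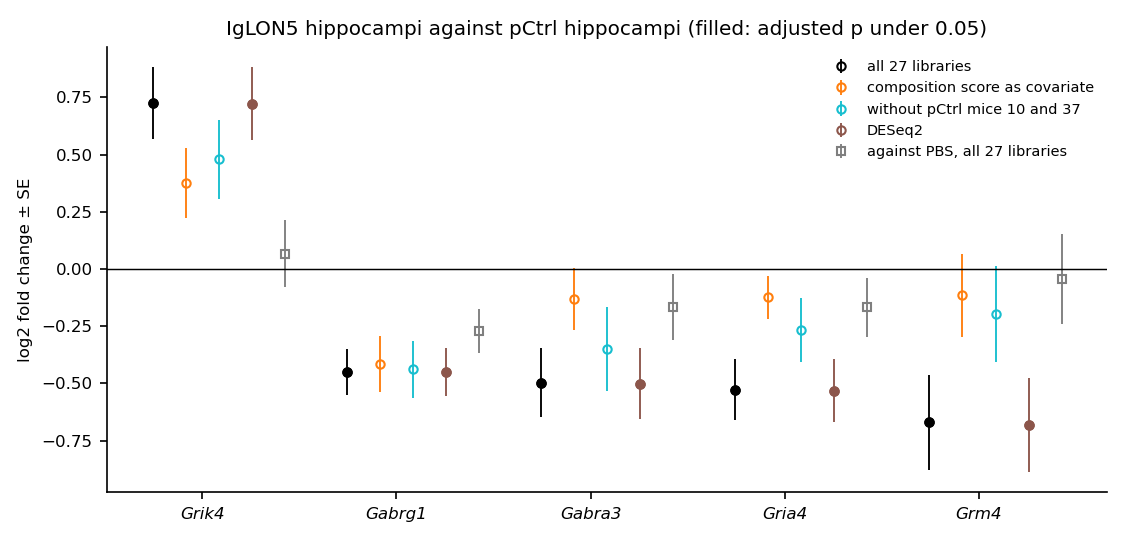
Log2 fold change ± SE of the 5 genes called between α-IgLON5#1 and pCtrl hippocampi, in the fit of all 27 libraries, with the composition score as a covariate, without the pCtrl hippocampi of mice 10 and 37, with DESeq2, and, as squares, against PBS. Gabrg1 lies at -0.41 to -0.45 against pCtrl, but is not called with the covariate or without mice 10 and 37, and Gria4, Gabra3 and Grm4 come near 0 with the covariate.

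The genes that separate the tissues are given here as a group. Of the 9 receptor genes higher in PBS cortex, 8 had a negative fold change between α-IgLON5#1 and pCtrl hippocampi, with a median of -0.47 on the log2 scale. Over all 2851 genes higher in PBS cortex 85.8% did, with a median of -0.16. Of the 9 receptor genes higher in PBS hippocampus 5 had a positive and 4 a negative one (median 0.08), against 17.7% negative among all 2569 such genes. With the covariate the medians were -0.11 and -0.12 for the receptor genes and -0.02 and 0.03 for all genes. The score was itself made from genes that separate the PBS tissues, receptor genes left out. The medians with the covariate are therefore no independent test of such genes. The PBS libraries do not enter either of the groups compared here.

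Other subunits of glutamate and GABA receptors were not called in this comparison. Gria1 had 634, 888, 455 and 889 CPM in pCtrl and 984, 1175, 819 and 876 CPM in α-IgLON5#1 hippocampi, with mice 37 and 10 lowest (log2 fold change 0.43, adjusted p = 0.0699). It was 0.02 with the composition score as a covariate, and DESeq2 called it higher. Grik3 (-0.47, adjusted p = 0.0547) lay just past the threshold. It was called lower in 5 of 16 alternative fits, DESeq2 and 3 that left out 1 library among them, and was -0.22 with the composition score (adjusted p = 0.731). Gria1 was called in 4 of 16. The fold change was 0.08 for Grin1, 0.25 for Grin2a, 0.11 for Grin2b, -0.01 for Gria2, 0.21 for Gabra5, -0.01 for Gabbr1 and 0.06 for Gabbr2, none of them called under any alternative.

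**Figure D5:**
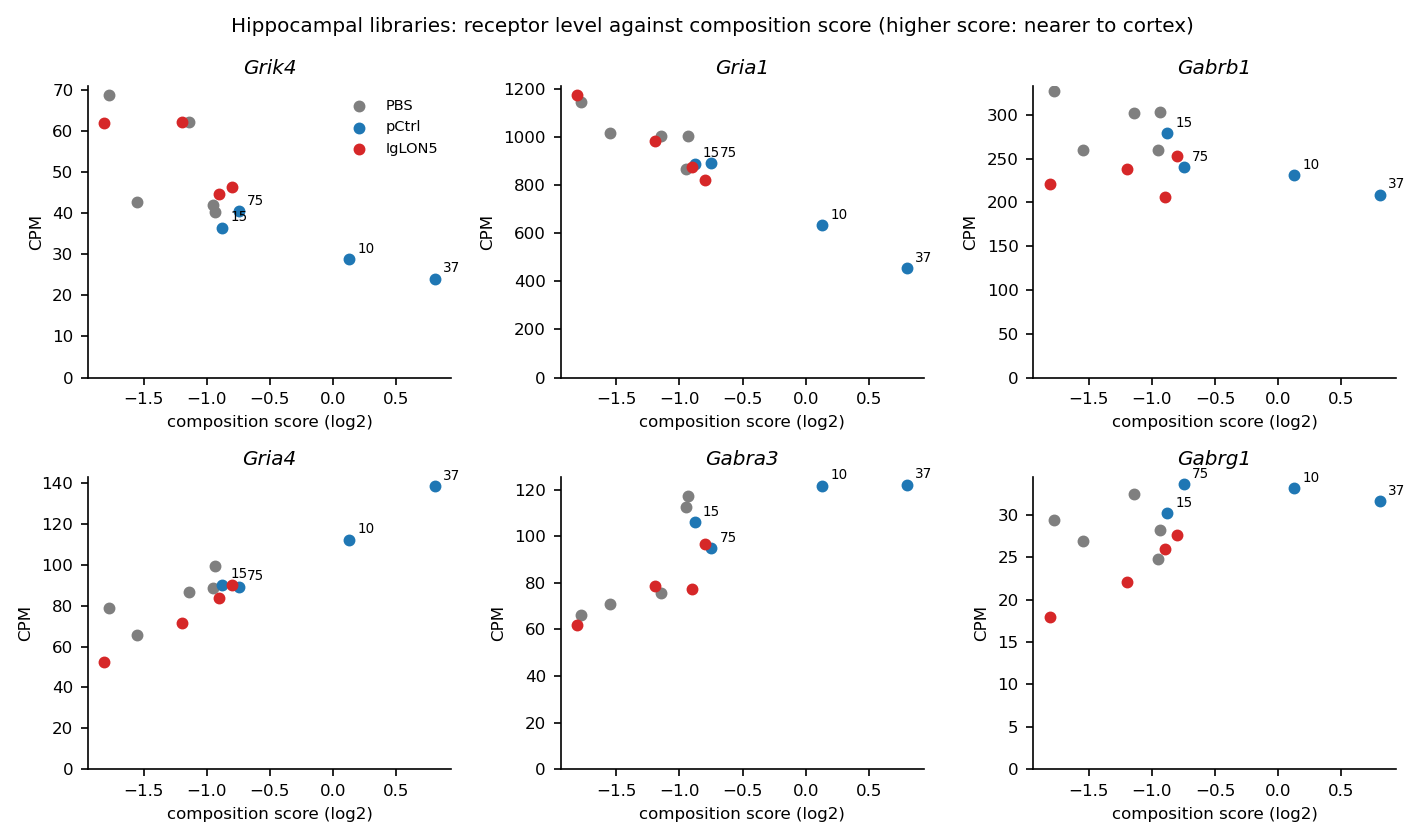
CPM of 6 receptor genes against the composition score (log2 scale, higher values nearer to cortex) in the 13 hippocampal libraries: PBS grey, pCtrl blue with mouse numbers, α-IgLON5#1 red. The pCtrl hippocampi of mice 10 and 37, at scores up to 0.804, hold the lowest Gria1 and Grik4 and the highest Gria4 levels, whereas Gabrg1 is at 30.2 CPM or more in all 4 pCtrl libraries.

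Against PBS hippocampi, whose composition scores overlap those of α-IgLON5#1, no receptor gene was called higher and Gabrb1 and Grik2 were called lower (3.81% and 0.474% of all genes). The fold change was below 0 for 32 of 38 receptor genes, with a median of -0.13. Over all genes the median was -0.007, and 48.3% of them lay above 0. All 12 tested GABA-A genes described were below 0, with a median of -0.22. Summed over 16 GABA-A genes the level was 909 to 1012 CPM in PBS, 846 to 987 CPM in pCtrl and 804 to 918 CPM in α-IgLON5#1 hippocampi. The 95% interval lay within 2-fold for 34 of the 38 genes. The marker lists moved as well: Gfap, Prkcd and 6 of 7 microglial markers rose, the pituitary markers Cga and Prl fell, and none of 8 pan-neuronal markers was called (median log2 fold change -0.06, sums of 6590 to 7572 CPM in PBS and 6243 to 6762 CPM in α-IgLON5#1). Of 6 astrocyte markers only Gfap was called, and none of 6 oligodendrocyte markers was. Prkcd was the only call among 6 thalamic markers, of which 3 lay above 0. The part of these markers in the receptor values was not tested.

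Gabrb1 (chr5:71658113-72149037), a β subunit, had 260, 302, 303, 259 and 327 CPM in the PBS hippocampi of mice 14, 32, 33, 38 and 74, and 238, 221, 253 and 206 CPM in the α-IgLON5#1 hippocampi. All treated libraries lay below all PBS libraries (log2 fold change -0.34, SE 0.0754, adjusted p = 0.00561). The call held with the composition score as a covariate (adjusted p = 0.00447) and with each library left out, among them mouse 74 (adjusted p = 0.026), and was lost when just these 2 groups entered the fit (adjusted p = 0.0621). In pCtrl hippocampi Gabrb1 had 231, 279, 209 and 240 CPM, so that α-IgLON5#1 differed from pCtrl by -0.06, and pCtrl from PBS by -0.28 (adjusted p = 0.0839). Both differences from PBS use the same 5 PBS libraries.

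Grik2 (chr10:49094833-49788766) had 118, 109, 116, 95.3 and 102 CPM in PBS and 96.4, 85.7, 91.8 and 87.8 CPM in α-IgLON5#1 hippocampi. The highest treated library lay just above the lowest PBS library (log2 fold change -0.26, SE 0.0699, adjusted p = 0.03), and the call held in 4 of the 9 fits that left out 1 library each. Gabrg3, which follows Grik2 in order of p, had -0.29 (adjusted p = 0.0598). Gabrb1 and Grik2 were also among the genes higher in PBS hippocampus than in PBS cortex, a comparison that uses the same PBS hippocampi.

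Between pCtrl and PBS hippocampi 0 receptor genes were called in either direction by edgeR (0.133% of all genes higher, 0.0592% lower). However, 14 of the 38 receptor genes had an unadjusted p under 0.05, a larger share than the 14.0% of all genes (2828 of 20271). DESeq2 called 1 receptor gene higher and 4 lower, and its share over all genes is not given here. The smallest adjusted p was that of Grik4, at 0.0624, with a log2 fold change of -0.66, and Gria1 followed a similar course (-0.49, adjusted p = 0.0907). The sums of the AMPA family were 2002 to 2550 CPM in PBS, 1539 to 2203 CPM in pCtrl and 1979 to 2341 CPM in α-IgLON5#1 hippocampi.

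In cortex, between α-IgLON5#1 and pCtrl no receptor gene was called higher and only Gabrd was called lower (3.01% and 0.449% of all genes). Of the marker lists Gfap and 2 of 7 microglial markers (Aif1 and C1qa) were called higher there, with 3 of 6 astrocyte markers above 0. The thalamic marker Prkcd was also called higher, with 5 of 6 of its list above 0. The layer marker Rorb (2 of 7 of its list above 0) and the cerebellar marker Cbln3 (1 of 6 above 0) were called lower. The part of these markers in the Gabrd value was not tested. Gabrd (chr4:155384980-155398112) had 62.9, 65.9, 45.7, 62.8 and 43.6 CPM in the pCtrl cortices of mice 10, 11, 15, 37 and 75, 32.7, 41.6, 46.4 and 39.6 CPM in α-IgLON5#1 cortices and 43.4, 45.9, 47.4, 32.3 and 43.5 CPM in PBS cortices. Mice 10, 11 and 37 of pCtrl stood above all other cortices, and mice 15 and 75 lay among the α-IgLON5#1 and PBS values. The log2 fold change was -0.48 (SE 0.124, adjusted p = 0.0245), the call was lost without pCtrl mouse 10, 11 or 37 or α-IgLON5#1 mouse 8 or 17, and the difference from PBS was -0.08 (adjusted p = 0.925). The composition score of those 3 pCtrl cortices was 2.66 to 2.80, against 1.79 to 2.42 in all PBS and α-IgLON5#1 cortices, and with it as a covariate the log2 fold change stayed at -0.48 with an adjusted p of 0.07. In hippocampus Gabrd lay between 21.2 and 29.6 CPM in all 13 libraries.

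Between α-IgLON5#1 and PBS cortices no receptor gene was called by edgeR or DESeq2 (2.97% of all genes higher and 0.074% lower by edgeR). Of the 38, 1 had an unadjusted p under 0.05, a smaller share than the 9.26% of all genes. The fold change was below 0 for 33 of the 38 genes, with a median of -0.08, and the 95% interval lay within 2-fold for 37. Over all genes the median was -0.02, and 43.5% of them lay above 0. The mice were those of the hippocampal comparison with PBS. Between pCtrl and PBS cortices none was called by either tool, and of all genes 0% were called higher and 0% lower by edgeR. Of the 38 receptor genes 9 had an unadjusted p under 0.05, a larger share than the 8.14% of all genes. The lowest adjusted p there belonged to Gabrd (0.40 on the log2 scale, adjusted p = 0.399). The median of the cortical fold changes between α-IgLON5#1 and pCtrl was 0.02.

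Whether the difference between α-IgLON5#1 and pCtrl was unlike in hippocampus and cortex was tested as an interaction. No receptor gene was called by edgeR or DESeq2, and 0% of all genes were by edgeR. Of the 38 receptor genes 12 had an unadjusted p under 0.05, a larger share than the 10.6% of all genes (2158 of 20271). Grik3 and Grik4 had the smallest adjusted p, both 0.245. The log2 fold change in hippocampus minus that in cortex was 0.77 for Grik4 and -0.69 for Grik3. The call of Grik4 in hippocampus alone is therefore not shown to be particular to that tissue.

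The group means of some subunits that define the main receptors are given over all 6 groups. Grin1 had group means of 296 to 350 CPM, Gabbr1 715 to 835 CPM and Gabbr2 302 to 421 CPM. Grin2b ranged from 566 CPM in pCtrl hippocampi to 711 CPM in PBS hippocampi. Within a group, the median coefficient of variation over the tested receptor genes was 6.84% to 12.3%, and it was larger in each hippocampal group than in any cortical group.

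The partners of the receptors were taken from fixed lists of 61 genes in all, every member of which was tested. Against pCtrl, where 4.23% of all genes were called higher and 2.78% lower, α-IgLON5#1 hippocampi had 1 of 15 AMPA auxiliary genes higher (Cacng8, a hippocampal TARP that slows AMPA channels, 0.36), Neto2 of the 2 kainate auxiliary genes lower (-0.41), and of 17 excitatory scaffold genes Camk2b (0.39) and Homer3 (0.98) higher and Dlg1 (-0.33) and Homer2 (-0.34) lower. Of 6 genes of transmitter synthesis and vesicle loading, the glutamate transporter Slc17a6 was lower (-0.71). None of 8 inhibitory scaffold genes, 4 GABA-B auxiliary genes, 7 uptake genes and 2 chloride transporter genes was called. Cacng8, Camk2b and Homer3 were called higher in PBS hippocampus than in PBS cortex, and Neto2, Dlg1 and Homer2 lower. Against PBS, where 3.81% of all genes were called higher and 0.474% lower, the call was Gad2, which makes GABA, lower (-0.22), and in cortex no gene of these lists was called in a comparison with α-IgLON5#1.

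Between the tissues of PBS mice, where 14.1% of all genes were higher and 12.7% lower in cortex, the same lists were compared. Of 15 AMPA auxiliary genes 4 were higher in cortex (Gsg1l 1.15, Cacng3 0.96, Cacng2 0.47 and Cacng7 0.26) and 5 in hippocampus (Shisa6 -2.78, Cacng8 -0.81, Cnih2 -0.79, Porcn -0.37 and Cpt1c -0.23). Neto2 was higher in cortex and Neto1 in hippocampus (0.56 and -0.60), as Grik3 and Grik4 were among the kainate subunits themselves. Of 17 excitatory scaffold genes 8 were higher in cortex (Homer1 1.27, Dlg1 0.64, Dlgap3, Dlgap2, Shank2, Homer2, Dlg2 and Dlgap4) and 2 in hippocampus (Homer3 -2.22 and Camk2b -0.58). Of 8 inhibitory scaffold genes Nlgn2 and Gabarapl1 were higher in cortex and Slitrk3 in hippocampus. Of the 4 GABA-B auxiliary genes Kctd12 and Kctd12b were higher in hippocampus (-0.96 and -0.55). Slc17a7 was higher in cortex, and Gad1 and Slc1a1 were higher in hippocampus. Of the chloride transporters Slc12a5, the exporter KCC2, was higher in cortex (0.35).

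The GABA-A genes lie in clusters on the chromosomes, and neighbours did not all share a tissue preference. On chromosome 5, from 70751047 to 72149037, lie Gabrg1, Gabra2, Gabra4 and Gabrb1, of which Gabra2 and Gabrb1 were called higher in PBS hippocampus and Gabrg1 and Gabra4 were not called. On chromosome 7, from 56716465 to 57510059, Gabra5 was called and Gabrg3 was not, and on the X chromosome Gabra3 was called, between the low genes Gabre and Gabrq. Gabra4 overlaps Gabrb1 on the other strand, and because the strand setting of the counting is not given, reads in the shared bases cannot be assigned.

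The 5 genes that were not tested were Gabra6, Gabrp, Gabrr1, Gabrr3 and Grm6. Gabrp was read in 2 libraries, with at most 5 counts, and Grm6, the receptor of retinal ON bipolar cells, in 10, with at most 3 counts. A count of 0 allows a level of up to 0.0492 to 0.169 CPM, depending on the library, for counting error only. Gabrr1 and Gabrr3, ρ subunits best known from the retina, had at most 13 and 9 counts. Gabra6, the α subunit of cerebellar granule cells, reached 168 counts (5.90 CPM) in the cortex of pCtrl mouse 37 and 31 counts (0.738 CPM) in its hippocampus, and at most 11 counts elsewhere. Of the genes tested, Grin3b, Gabre, Gabrr2 and Gabrq had group means of 0.191 to 1.75 CPM and none was called in any comparison.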

How the data were processed

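The authors deposited raw counts per gene and library, whole numbers without normalization, made from paired-end reads of stranded mRNA libraries that were aligned with STAR (1.4.0 in the submitters' processing notes) to GRCm38. The counting program, its strand setting and the annotation release are not given in the sources used here. Each library's label carries a number, which was read as that of the mouse. Members and lists were chosen with earlier results of these data known. A further 4 genes that the symbol rule takes, and 1 gene of the partner lists, are not reported here and are in none of the counts, medians and sums given, although they stayed in every fit.

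Gene IDs were matched to GENCODE M21 (55141 of 55487 rows). The tests were run on genes reaching 10 counts in 4 or more libraries, with the quasi-likelihood F test of edgeR 4.0.16 under R 4.3.3 (TMM scaling, 1 coefficient for each of the 6 groups, all 27 libraries), and p-values were adjusted over all genes by the Benjamini-Hochberg method. SEs were taken from the fold change and the F value, and intervals are 95%. On simulated counts for α-IgLON5#1 against pCtrl hippocampi, with 20271 genes, 70.1% of 67 genes changed 1.5-fold and 89.6% of 67 changed 2-fold were recovered. Nothing in the labels tells litters or cages apart. Named genes were those called in a comparison with α-IgLON5#1, the 8 with the largest fold change in each direction between PBS tissues, the most abundant of each family, 9 set subunits (Grik3, Grin1, Grin2a, Grin2b, Gria1, Gria2, Gabra5, Gabbr1 and Gabbr2) and those not tested.

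The alternatives were DESeq2 1.42.0, its size factors in edgeR, other count filters, a fold change above 2, only the groups compared, the composition score centred within tissue as a covariate, only mice 8 to 17, the mouse as a block, each library left out and, added after seeing the data, the pCtrl hippocampi of mice 10 and 37 left out. The tissues of a mouse were checked for pairing by correlating their deviations from the group means over genes. The correlation was -0.0498 to 0.443 over 13 mice (median 0.194) and above 0.1 in 8.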

Additional observations from a re-analysis of the deposited data

Results flagged for a closer look

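A library far from the others of its group was found in 13 of 145 combinations of gene and group (25 genes, 8.97%), where chance gives about 1 in 20. In 5 of the 13 all other libraries of the group had 0 counts, so that any count stands apart and this rate does not apply. The 8 that remain are near the number that chance gives for as many combinations. Among the genes called in a comparison, Grik4 was highest in the pCtrl cortex of mouse 37 (24.9 CPM, others 20.9 to 21.8), Gria4 lowest in the α-IgLON5#1 cortex of mouse 8 (124 CPM, others 135 to 137), Gabrg1 lowest in the PBS cortex of mouse 14 (24.3 CPM, others 30.0 to 31.0), Gabrb1 highest in the α-IgLON5#1 cortex of mouse 9 (209 CPM, others 199 to 201) and Gabrd lowest in the PBS cortex of mouse 38 (32.3 CPM, others 43.4 to 47.4).

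The cerebellar subunit Gabra6 was highest in both tissues of pCtrl mouse 37, with 5.90 CPM in cortex (others up to 0.426) and 0.738 CPM in hippocampus (others 0.0409 to 0.0940). Of 6 cerebellar markers, Cbln3 (14.8 CPM), Fat2 (9.51 CPM), En2 (1.72 CPM) and Pcp2 (1.26 CPM) were also highest of all 27 libraries in that cortex, whereas Cbln1 (15.9 CPM, up to 44.5 elsewhere) and Calb1 (191 CPM, up to 203 elsewhere) were not.

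The other libraries that stood apart did so on a few counts. Gabra6 had 0.126 CPM in the α-IgLON5#1 cortex of mouse 17 (7 counts, others 0), Gabrp 0.147 CPM in the PBS hippocampus of mouse 33 (5 counts) and 0.0613 CPM in the pCtrl hippocampus of mouse 10 (3 counts), and Gabrr3 0.161 CPM in the α-IgLON5#1 cortex of mouse 17 (9 counts). Grm6 had 0.0665 CPM in the pCtrl cortex of mouse 75 and 0.0573 CPM in the α-IgLON5#1 hippocampus of mouse 17, with 2 counts each.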

How the results depend on the processing

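With these depths and group sizes 70.1% of simulated 1.5-fold changes were recovered, so that smaller ones can be missed, treatment and mouse number go together (numbers 8 to 17 hold every α-IgLON5#1 mouse), and the pCtrl hippocampi differ in composition. Of the counts of called receptor genes under the alternatives other than leaving out 1 library, 119 were within 1.5 times of the main count and 27 were not. The shares of all genes called are given for the main fit only. Whether a count moved for receptor genes alone or for all genes therefore cannot be read from these counts. Between α-IgLON5#1 and pCtrl hippocampi the counts of 1 higher and 4 lower became 0 and 0 with only the groups compared, with the composition score as a covariate, with only mice 8 to 17, without the pCtrl hippocampi of mice 10 and 37 and with a fold change above 2. The higher count became 2 with DESeq2. Against PBS hippocampi the 2 lower calls became 0 with only the groups compared and with a fold change above 2. Between pCtrl and PBS hippocampi DESeq2 gave 1 higher and 4 lower, and no count filter 1 lower, in place of 0. Between α-IgLON5#1 and pCtrl cortices the 1 lower call became 2 without a count filter and 0 with only the groups compared, the covariate, only mice 8 to 17 or a fold change above 2. Between tissues a fold change above 2 left 0 higher and 2 lower in PBS, 1 and 2 in pCtrl and 0 and 2 in α-IgLON5#1 mice. The causes were not tested.

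With the mouse as a replicate block the tissue calls were 9 higher and 9 lower in PBS, 7 and 10 in pCtrl and 12 and 8 in α-IgLON5#1 mice, and 0 in the interaction, so the pairing of tissues moved no count by over 1.5 times.

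With each library left out in turn, α-IgLON5#1 against pCtrl hippocampi gave 1 to 2 higher and 1 to 7 lower calls. The higher calls were 2 without pCtrl mouse 15 or 75 or α-IgLON5#1 mouse 16. The lower calls were 1 without pCtrl mouse 10 or 37 or α-IgLON5#1 mouse 8 or 9, 2 without α-IgLON5#1 mouse 17, and 7 without pCtrl mouse 75 or α-IgLON5#1 mouse 16. Against PBS there were 0 higher and 1 to 4 lower calls, 1 without PBS mouse 32 or 33 or α-IgLON5#1 mouse 9 or 17, and 4 without α-IgLON5#1 mouse 16. Between pCtrl and PBS hippocampi there were 0 to 1 higher and 0 to 7 lower calls, of which 7 without pCtrl mouse 15, 4 without PBS mouse 38, 2 without pCtrl mouse 75 and 1 without PBS mouse 33. Between α-IgLON5#1 and pCtrl cortices there were 0 to 1 lower calls and in the other cortical comparisons and the interaction 0. Between tissues the counts ran from 9 to 11 higher and 9 to 10 lower in PBS, 6 to 7 and 9 to 12 in pCtrl and 9 to 12 and 7 to 9 in α-IgLON5#1 mice.

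The log2 fold changes between α-IgLON5#1 and pCtrl hippocampi that changed sign lay between -0.01 and 0.25 in the fit of all libraries and were not called in any of the 16 alternative fits. With the covariate they were -0.055 for Grin2a, -0.019 for Grin2b, -0.187 for Gabra5 and 0.032 for Gabbr1. Without mice 10 and 37 of pCtrl they were -0.021 for Grin2a and -0.013 for Grin2b, and with only mice 8 to 17 -0.021 for Grin2b. Leaving out 1 library gave -0.082 to 0.053 for Gria2 and -0.026 to 0.0036 for Gabbr1.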
